A study of Homo sapiens with 16 samples.

Results

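The replication-dependent histone genes encode the bulk H1, H2A, H2B, H3 and H4 proteins that package newly replicated DNA, and they are described here across 4 groups of Molm14 cells, an acute myeloid leukaemia line. Members were the rows of the deposited expression table whose Ensembl gene IDs belong to protein-coding genes with symbols beginning HIST1H, HIST2H, HIST3H or HIST4H in GENCODE 29. The annotation holds 71 such genes, and 56 of them had a row among the 22445 gene IDs of the table: 4 of 6 H1 genes, 14 of 17 H2A genes, 15 of 18 H2B genes, 11 of 15 H3 genes and 12 of 15 H4 genes. The other 15 genes were not analysed here, and they include the testis genes HIST1H1T and HIST1H2BA. Of the 56, 42 lie in the HIST1 cluster (GRCh38 chr6:25726132-27893843) and 10 in the HIST2 cluster (chr1:143905556-149887916). Another 3 lie in the HIST3 cluster (chr1:228424845-228460470) and 1, HIST4H4, alone at chr12:14767999-14771131. These ranges span all annotated genes, with or without a row. HIST2H3PS2, which had no row, sets the start of the HIST2 range, and the 10 members lie at chr1:149782689-149887916.

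Each group had 4 RNA-seq libraries, numbered 1 to 4 in the labels. Cells of the iDOT1L group received EPZ5676, which inhibits the methyltransferase DOT1L, at 0.16 uM. Those of the iEZH2 group received GSK126, which inhibits the Polycomb methyltransferase EZH2, at 0.3 uM. The Combo group received both compounds and the DMSO group the vehicle, and treatment lasted 7 days with medium and compound renewed on day 4. The labels do not say whether the 4 libraries of a group came from separate cultures, so p-values speak to the spread among these libraries alone, which may be technical. All 3 comparisons against DMSO use the same 4 DMSO libraries. In bulk RNA, fewer cells that express a gene and less RNA per cell cannot be told apart.

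Replication-dependent histone genes are transcribed in S phase, and most of their mRNAs carry no poly(A) tail. Their 3′ end is formed by a cut just after a conserved stem-loop, which is bound by the stem-loop-binding protein SLBP, while NPAT drives their transcription in nuclear bodies at the clusters. Some of these genes are also known to give polyadenylated transcripts that run past the stem-loop. Some replacement histone genes, such as H3F3A, are polyadenylated and transcribed through the whole cell cycle. DOT1L and EZH2 both act on the H3 protein as substrate.

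The stem-loop is shown for 6 members because it is the signal that sets these mRNAs apart from other mRNAs. It was looked for in the GENCODE 29 transcripts as a stem of 6 base pairs starting GG around a loop of 4 bases starting TT, and an annotated transcript of 27 of the 56 members (48.2%) held it, against 154 of 19922 protein-coding genes (0.773%). Many annotated histone transcripts end with the coding sequence, so a missing match says only that these letters are not in the annotated transcript. The capitals mark the stem and loop, and the lower-case letters the 5 bases on each side.
HIST3H2A: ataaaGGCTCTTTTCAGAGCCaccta
HIST2H2AA4: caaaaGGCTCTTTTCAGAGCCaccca
HIST1H2AC: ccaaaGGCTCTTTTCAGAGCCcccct
HIST1H2BD: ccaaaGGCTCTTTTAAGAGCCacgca
HIST1H4H: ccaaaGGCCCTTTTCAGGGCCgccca
HIST4H4: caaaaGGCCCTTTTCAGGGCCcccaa
The 3 H2A genes HIST3H2A, HIST2H2AA4 and HIST1H2AC share the same 16 letters, the H2B gene differs in the loop, and both H4 genes differ in the stem. The letters AATAAA, which can direct the addition of a poly(A) tail, stood in an annotated transcript of 21 members (37.5%), against 86.2% of protein-coding genes. Both signals were found in 17 members and neither in 25.

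Promoters are shown for 3 H2A genes on which the results below turn. The sequences are from RefSeq (GRCh38.p14), run from 250 bases before to 50 bases after the annotated start on the strand of the gene, and matched 43 of the 56 members. Capitals mark CCAAT on either strand (as ATTGG on the opposite one), the octamer ATTTGCAT on either strand, and the letters TATAAA as written. The first lies at chr1:228457824-228458123 on the minus strand, the next at chr1:149850811-149851110 on the plus strand and the last at chr6:26123922-26124221 on the plus strand.
HIST3H2A: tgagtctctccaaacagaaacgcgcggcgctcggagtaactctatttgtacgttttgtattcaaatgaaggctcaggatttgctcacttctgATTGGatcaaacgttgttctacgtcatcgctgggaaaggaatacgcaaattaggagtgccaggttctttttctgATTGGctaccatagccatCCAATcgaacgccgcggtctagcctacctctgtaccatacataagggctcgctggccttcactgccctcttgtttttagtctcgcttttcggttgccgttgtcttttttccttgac
HIST2H2AA4: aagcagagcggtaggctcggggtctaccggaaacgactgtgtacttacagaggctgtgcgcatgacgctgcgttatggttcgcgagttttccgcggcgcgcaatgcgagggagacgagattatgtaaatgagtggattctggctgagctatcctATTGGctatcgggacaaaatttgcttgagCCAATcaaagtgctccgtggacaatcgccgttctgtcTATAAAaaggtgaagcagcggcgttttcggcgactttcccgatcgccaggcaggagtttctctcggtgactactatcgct
HIST1H2AC: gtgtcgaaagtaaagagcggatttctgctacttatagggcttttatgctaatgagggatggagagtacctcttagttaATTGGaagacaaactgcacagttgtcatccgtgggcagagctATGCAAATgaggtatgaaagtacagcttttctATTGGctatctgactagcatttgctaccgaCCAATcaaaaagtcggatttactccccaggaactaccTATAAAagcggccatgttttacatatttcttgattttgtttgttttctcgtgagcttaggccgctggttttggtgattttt
CCAAT, the box bound by NF-Y, was present 3 times in the HIST3H2A and HIST1H2AC windows. TATAAA was present in the HIST2H2AA4 and HIST1H2AC windows and not among the letters of the HIST3H2A window. Over the 43 members CCAAT was found in 35 (81.4%), against 34.6% of the 35116 promoters in the RefSeq table, and TATAAA in 27 (62.8%), against 7.33%. The octamer ATTTGCAT was found in 10 of 13 H2A and 6 of 9 H2B promoters and in none of the H1, H3 and H4 promoters, against 1.77% of the table. AAACACA, searched on both strands and known as a motif of H1 promoters, stood in 4 of 4 H1, 2 of 7 H3 and 1 of 13 H2A promoters, in none of the H2B and H4 promoters, and in 5.64% of the table. H4 promoters held CCAAT in 2 of 10 cases. Of 153 pairs of matches of different motifs in one member's promoter, 0 overlapped. A match is a description of letters, and none was tested for binding.

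Levels are given as normalised counts, that is reads scaled between libraries, with 1 read worth 0.85 to 1.13 of them. The 16 libraries held an estimated 20.6 to 27.2 M reads each. Of the 10 myeloid markers checked, all had a row and their summed level was 34250 to 39916 in iDOT1L, 18288 to 25509 in iEZH2, 33404 to 42052 in Combo and 22994 to 28874 in DMSO libraries. CD14 stood near 0 among them. The sum hides opposite changes. In the limma test described below, LYZ and MPO were called higher and FLT3 and CD68 lower against DMSO, both with iDOT1L and with Combo. With iEZH2 FLT3 alone was called, and it was lower. Of all genes 6.25% were called with iDOT1L, 3.35% with iEZH2 and 16% with Combo. Of 10 genes listed as markers of other cell types 8 had a row. Their sums were 2888 to 4733 in iDOT1L, 2671 to 3433 in iEZH2, 2529 to 2987 in Combo and 3706 to 4707 in DMSO libraries. These sums were mostly PECAM1 and KRT18, while EPCAM and ALB had group means of at most 7.32. Whether they stand for other cells was not tested. The part of these differences in the results on histone genes was not tested.

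Histone genes were read at low levels. The mean over 16 libraries was below 10 normalised counts in 18 members, between 10 and 50 in 28 and at least 50 in 10. A count of 0 occurred in at least 1 library for 13 members, and 43 were above 0 in all 16. Together the 56 genes made up 39.1 to 106 counts per M of a library's normalised total. Their summed level was 1699 ± 577 in iDOT1L, 1371 ± 421 in iEZH2, 1474 ± 403 in Combo and 1802 ± 311 in DMSO libraries (SD, n = 4 each), and the 4 groups overlapped.

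Scaled by the length of the longest annotated transcript, the highest H2A gene was HIST2H2AA4 with 217 normalised counts per kb. That length was 381 bases for HIST1H2BK and 10982 for H2AFY, so the order depends in part on the annotation. HIST1H4C led the H4 genes with 156 per kb and HIST1H2BK the H2B genes with 154 per kb. HIST1H1C, a linker histone gene, led H1 with 120 per kb, while the highest H3 gene, HIST1H3B, reached 31.4 per kb. On the same per-length scale 9 of 12 replacement histone genes stood above HIST2H2AA4, between 380 for CENPA and 9328 for H3F3A, and 3 stood below it, H2AFJ with 58.8, H3F3C with 3.78 and H2AFY2 with 2.35.

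Summed by class, the 14 H2A genes reached 696 ± 369 in iDOT1L, 389 ± 149 in iEZH2, 406 ± 126 in Combo and 633 ± 132 in DMSO libraries (SD, n = 4 each, normalised counts). The 15 H2B genes summed to 408 ± 122 in iDOT1L, 349 ± 104 in iEZH2, 404 ± 110 in Combo and 472 ± 86.7 in DMSO libraries. HIST1H2AC made up much of the gap between the H2A means of iEZH2 or Combo libraries and that of DMSO libraries. The other 13 H2A genes, an exclusion chosen after the values were seen, summed to 365 ± 89.8 in iDOT1L and 288 ± 78.7 in iEZH2. They summed to 314 ± 68.7 in Combo and 352 ± 32.5 in DMSO libraries. The groups overlapped in both classes. The 12 H4 genes summed to 391 ± 64.3 in iDOT1L, 412 ± 112 in iEZH2, 443 ± 124 in Combo and 453 ± 77.4 in DMSO libraries. The 11 H3 genes summed to 83.5 ± 20.4 in iDOT1L, 99.4 ± 29.6 in iEZH2, 99.0 ± 19.4 in Combo and 95.5 ± 27.5 in DMSO libraries. The 4 H1 genes, the linker histones, summed to 120 ± 27.7 in iDOT1L, 121 ± 41.4 in iEZH2, 122 ± 38.8 in Combo and 148 ± 48.7 in DMSO libraries. Within H1, H3 and H4 the group means lay closer together than the libraries of one group.

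**Figure D1:**
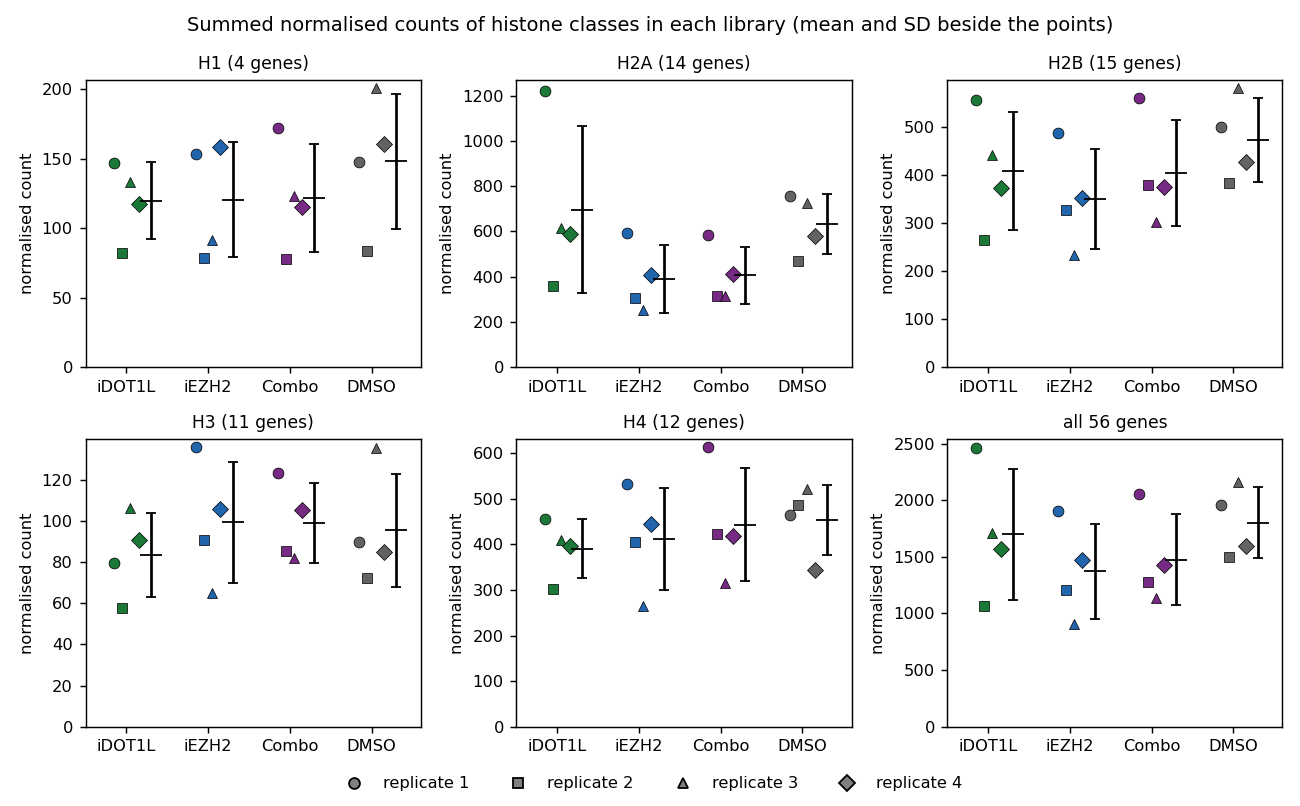
Summed normalised counts (y axis) of the members of each histone class and of all 56 genes in each of 16 libraries (points, shaped by replicate number), with the mean and SD of the 4 libraries beside them. The H2A sums of iEZH2 and Combo libraries averaged 389 and 406, against 633 in DMSO libraries (288 and 314, against 352, without HIST1H2AC), and the groups overlapped in every panel.

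Changes were tested with limma on log2 of the normalised count plus 1, a scale that understates the change of low genes, over all 22331 genes that passed a low-count filter, with Benjamini-Hochberg adjustment over all of them. All 56 members passed the filter, and a gene was called at an adjusted p under 0.05. With iDOT1L against DMSO 1 member was called, HIST3H2A, which rose; 6.25% of all genes were called, 3.08% higher and 3.17% lower. No member was called with iEZH2 against DMSO, where 3.35% of all genes were called (1.3% higher and 2.05% lower), 9 members (16.1%, against 15.7% of all genes) had an unadjusted p under 0.05 and the lowest adjusted p was 0.0972. With Combo against DMSO HIST3H2A and HIST2H3D rose and HIST2H2AA4 fell, 3 of 56 members (5.36%), while 16% of all genes were called, 7.22% higher and 8.8% lower. In each of these comparisons the share of histone genes called was below the share of all genes, a difference that was not tested.

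Without regard to calls, 23 members had a positive and 33 a negative log2 fold change with iDOT1L against DMSO. The split was 28 to 28 with iEZH2 and 27 to 29 with Combo. The median log2 fold change of the members was -0.10 with iDOT1L, -0.0013 with iEZH2 and -0.0042 with Combo, beside medians over all genes of 0.0093, 0.016 and 0.028. By class, all 4 H1 genes were on the negative side with iDOT1L, and 9 of 11 H3 genes were on the positive side with iEZH2. These 9 include HIST2H3A and HIST2H3C, which had the same value in all 16 libraries. The H3 genes averaged only 1.03 to 18.1 normalised counts. None of these H1 genes and none of these H3 genes passed the test there.

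**Figure D2:**
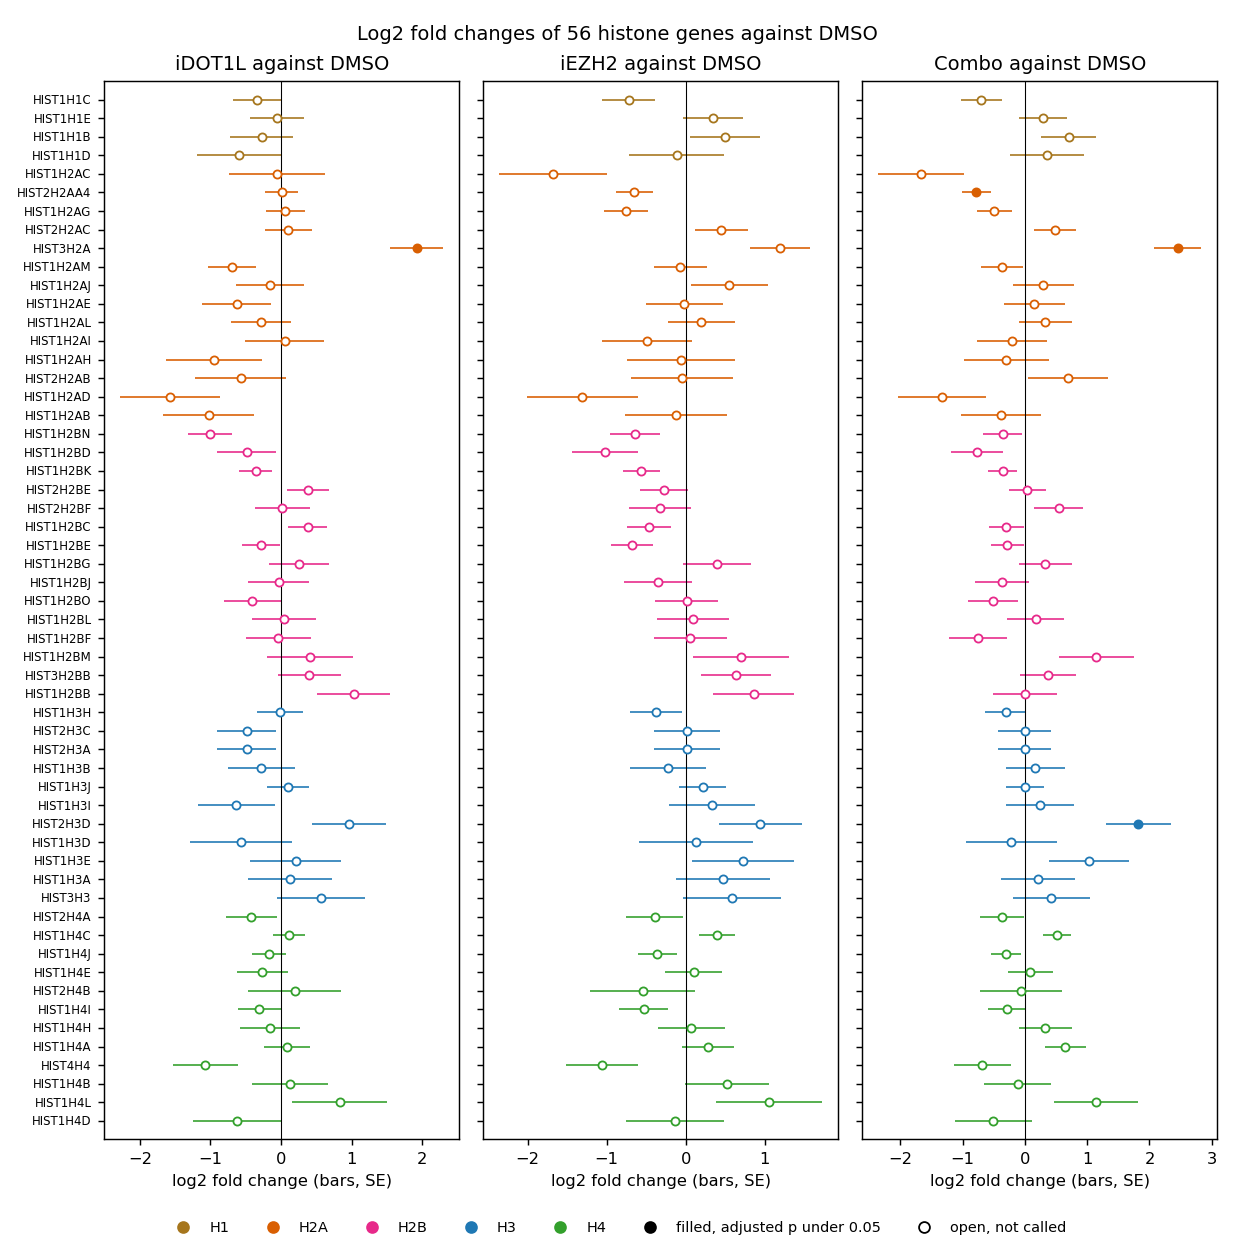
Log2 fold change of each of the 56 histone genes against DMSO (x axis, bars are SE) with iDOT1L, iEZH2 and Combo, coloured by class and ordered by mean level within each class; filled points had an adjusted p under 0.05 in limma and the scale differs between panels. HIST3H2A was called with iDOT1L (1.92) and Combo (2.45), HIST2H3D (1.82) and HIST2H2AA4 (-0.78) with Combo, and no gene with iEZH2.

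HIST3H2A (ENSG00000181218, chr1:228456979-228457873, minus strand) encodes an H2A protein from the small HIST3 cluster. It had 47.29, 23.70, 28.97 and 38.41 normalised counts in iDOT1L libraries, 19.96, 19.98, 14.44 and 27.13 in iEZH2 libraries and 55.64, 37.95, 53.84 and 50.04 in Combo libraries, against 4.38, 5.51, 23.6 and 6.99 in DMSO libraries. All iDOT1L and all Combo libraries were above all DMSO libraries, and DMSO 3 stood apart from the other DMSO libraries, close to the lowest iDOT1L library and inside the iEZH2 range. The means were 34.6 ± 10.4 with iDOT1L, 20.4 ± 5.20 with iEZH2, 49.4 ± 7.96 with Combo and 10.1 ± 9.05 with DMSO (SD, n = 4 each).

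HIST3H2A rose with iDOT1L by a log2 fold change of 1.92 ± 0.38 (SE, limma adjusted p = 0.00362) and with Combo by 2.45 ± 0.38 (adjusted p = 0.000152). With iEZH2 the log2 fold change was 1.20 ± 0.38 and was not called (limma adjusted p = 0.0972, or 0.0528 with libraries of the same number treated as pairs). Both calls held in each of 8 limma fits that left out 1 library, with adjusted p between 9.94e-05 and 0.0159 for iDOT1L and between 4.88e-06 and 0.000901 for Combo. Without DMSO 3, the iEZH2 difference was 1.68 and was called (limma adjusted p = 0.00625). Every Combo library of HIST3H2A was above every iEZH2 library, with a log2 fold change of 1.25 that was not called (limma adjusted p = 0.0772). The log2 fold change of Combo against iDOT1L was 0.53 (limma adjusted p = 0.516). Only 4.39% of the 31-base words in HIST3H2A transcripts occur in transcripts of other genes, so its reads are largely its own.

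HIST3H2BB, an H2B gene on the other strand that starts at position 228458107, within the HIST3H2A promoter window printed above, had 5.76, 1.89, 4.53 and 5.21 normalised counts in iDOT1L, 7.62, 2.23, 5.98 and 5.63 in iEZH2 and 4.57, 4.11, 2.69 and 4.89 in Combo libraries, against 1.08, 5.51, 2.24 and 4.00 in DMSO libraries. Its groups overlapped, and its log2 fold changes of 0.40, 0.64 and 0.37 with iDOT1L, iEZH2 and Combo were not called. HIST3H3, a testis H3 gene of the same cluster, was at 0 in 8 libraries and reached at most 2.91. TRIM11, TRIM17 and RNF187, which also lie within 100 kb, were not called against DMSO in any group.

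HIST2H3D, an H3 gene of the HIST2 cluster (chr1:149813271-149813681), was near the floor of detection, with 4.82, 2.85, 3.61 and 3.11 normalised counts in iDOT1L, 5.683, 1.099, 5.074 and 3.731 in iEZH2 and 11.2, 4.07, 7.26 and 7.96 in Combo libraries, against 5.524, 1.096, 1.139 and 0 in DMSO libraries. The Combo and DMSO libraries overlapped, since DMSO 1 lay above Combo 2. HIST2H3D rose with Combo by a log2 fold change of 1.82 ± 0.52 (SE, limma adjusted p = 0.0213), a difference of a few reads. The call held in 5 of 8 limma fits that left out 1 library and was lost without Combo 1 (adjusted p = 0.0642), Combo 4 (0.0527) or DMSO 4 (0.0806). Of its 31-base words 86.4% occur in other transcripts, mostly of the pseudogene HIST2H3DP1, so its reads cannot be assigned with certainty.

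HIST2H2AA4, the H2A gene with the highest level per length, lies at chr1:149851061-149851624. It had 224, 120, 142 and 132 normalised counts in iDOT1L, 147, 75.3, 77.8 and 91.3 in iEZH2 and 117, 65.3, 81.1 and 87.9 in Combo libraries, against 161, 125, 170 and 142 in DMSO libraries. All 4 Combo libraries were below all DMSO libraries, 3 of 4 iEZH2 libraries were too, and iDOT1L and DMSO libraries overlapped. Means were 154 ± 47.3 with iDOT1L, 97.85 ± 33.5 with iEZH2, 87.9 ± 21.8 with Combo and 149.5 ± 19.98 with DMSO (SD, n = 4 each).

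HIST2H2AA4 fell by 0.78 ± 0.23 with Combo (SE of the log2 fold change, limma adjusted p = 0.0266). The call held in 3 of 8 fits that left out 1 library, with adjusted p between 0.0139 and 0.0783, and was lost without Combo 2, Combo 3, Combo 4, DMSO 1 or DMSO 3, and also when libraries were scaled to the same upper quartile (adjusted p = 0.0580 in limma). With iEZH2 its log2 fold change was -0.65 (limma adjusted p = 0.149), and it was called with same-numbered libraries as pairs (adjusted p = 0.00871). With iDOT1L it was 0.01 (limma adjusted p = 0.987). The transcripts share 97.2% of their words with those of its copy HIST2H2AA3, which was not analysed here, so the reads of the pair cannot be told apart.

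**Figure D3:**
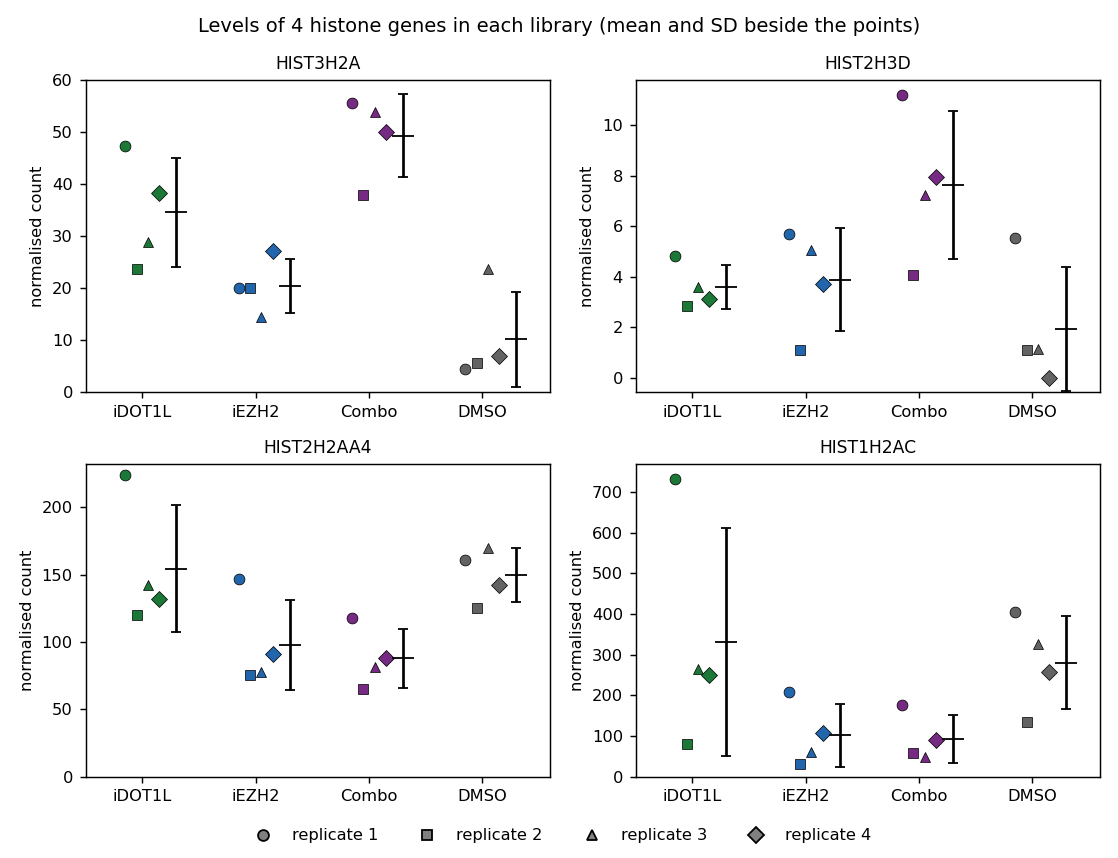
Normalised counts (y axis) of HIST3H2A, HIST2H3D, HIST2H2AA4 and HIST1H2AC in each of 16 libraries (points, shaped by replicate number), with the mean and SD of the 4 libraries of each group beside them. HIST3H2A lay between 37.95 and 55.64 in Combo libraries, all above the DMSO libraries, while HIST1H2AC ranged between 80.5 and 733 within the iDOT1L group alone.

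HIST1H2AC (chr6:26124145-26139116), the H2A gene with the most counts, has AATAAA and a stem-loop in its annotated transcripts and shares only 1.80% of its words with other genes. It had 733, 80.5, 264 and 250 normalised counts in iDOT1L, 208, 31.9, 59.3 and 106 in iEZH2 and 175, 57.4, 47.0 and 91.0 in Combo libraries, against 406, 134, 325 and 256 in DMSO libraries. Within each replicate number, the iEZH2 and Combo libraries were below the iDOT1L and DMSO libraries, although the groups overlapped. The log2 fold change was -1.67 ± 0.68 with iEZH2 (SE, limma adjusted p = 0.241), -1.67 ± 0.68 with Combo (adjusted p = 0.123) and -0.05 ± 0.68 with iDOT1L (adjusted p = 0.981). With same-numbered libraries as pairs, HIST1H2AC was called lower with iEZH2 than with DMSO (limma adjusted p = 0.00124) and higher with iDOT1L than with iEZH2 (log2 fold change 1.62, adjusted p = 0.001004).

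Same-numbered libraries of iDOT1L, iEZH2 and DMSO deviated together over the 12270 genes with a mean of at least 50, with all 4 correlations above 0.1 in each pair of groups, so the paired fit is also given for their comparisons. Over the 15457 genes with a mean of at least 10, 3 of 4 were above 0.1. The paired fit took replicate number as a block over all 16 libraries, those of Combo included. In that fit 2 members were called with iDOT1L against DMSO, where 12.2% of all genes were, namely HIST3H2A (higher) and HIST1H2BN (lower, log2 fold change -1.01, limma adjusted p = 0.0147 paired and 0.0694 unpaired). With iEZH2 against DMSO 4 members were called lower in the paired fit, where 9.76% of all genes were called: HIST1H2AC, HIST2H2AA4, HIST1H2AG and HIST1H1C. With iDOT1L against iEZH2 4 members were called higher in the paired fit, where 14.3% of all genes were called: HIST1H2AC, HIST2H2AA4, HIST1H2AG and HIST1H2BC. None was called there in the unpaired fit, where 6.94% of all genes were called, 5 members (8.93%, against 19.3% of all genes) had an unadjusted p under 0.05 and the lowest adjusted p was 0.0813. For comparisons with Combo libraries the paired fit called 24.6% of all genes against DMSO, 10% against iDOT1L and 9.57% against iEZH2. HIST1H2BN, HIST1H2AG and HIST1H2BC were singled out after their values were seen.

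HIST1H2BN, an H2B gene, had 56.7, 22.7, 77.6 and 48.7 normalised counts in iDOT1L, 99.0, 35.8, 56.75 and 67.75 in iEZH2 and 84.8, 71.8, 58.8 and 85.9 in Combo libraries, against 86.1, 77.8, 116 and 107 in DMSO libraries. All iDOT1L libraries were below all DMSO libraries. HIST1H2AG, an H2A gene, had 145, 57.7, 100.6 and 73.9 in iDOT1L, 69.6, 45.6, 29.03 and 68.5 in iEZH2 and 78.8, 54.4, 50.2 and 61.6 in Combo libraries, against 94.4, 83.7, 79.4 and 83.9 in DMSO libraries. All iEZH2 and all Combo libraries of HIST1H2AG were below all DMSO libraries. HIST1H2BC, an H2B gene, had 53.05, 31.65, 33.06 and 36.9 in iDOT1L, 30.6, 20.1, 12.1 and 24.3 in iEZH2 and 30.1, 20.3, 26.0 and 18.7 in Combo libraries, against 33.8, 22.7, 32.1 and 28.4 in DMSO libraries. Every iDOT1L library of HIST1H2BC was above every iEZH2 and every Combo library, while iDOT1L and DMSO overlapped.

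Groups without overlap were counted whether or not the test called the gene. With iDOT1L against DMSO 1 member lay above all DMSO libraries (HIST3H2A), where 6.05% of all genes did, and 2 lay below (HIST1H2BN and HIST1H1D), where 6.42% did. HIST1H1D stood at about 1 read in 6 of those 8 libraries. With iEZH2 against DMSO 0 members lay above (3.67% of all genes) and 2 below (HIST1H2AG and HIST1H2BK, 4.95% of all genes). With Combo against DMSO 2 lay above (HIST3H2A and HIST1H4C, 9.62% of all genes) and 2 below (HIST2H2AA4 and HIST1H2AG, 10.3% of all genes). Each count was a smaller share of the 56 than that of all genes, but the counts are small and the difference was not tested. A mean of at least 50 was reached by 10 of the 56 members and by 12270 of all 22445 genes. The part of the level in these counts was not tested.

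None of the 4 H1 members was called in the unpaired fit. HIST1H1C had 122, 52.2, 80.6 and 68.4 normalised counts in iDOT1L, 93.0, 33.2, 48.3 and 80.2 in iEZH2 and 80.3, 40.9, 62.9 and 62.0 in Combo libraries, against 123, 55.0, 128 and 105 in DMSO libraries. Library 2 was the lowest in every group of HIST1H1C. Its log2 fold change with iEZH2 was -0.72 ± 0.33 (SE, limma adjusted p = 0.303, or 0.01996 paired). HIST1H1E averaged 27.8 with iDOT1L, 37.2 with iEZH2, 36.5 with Combo and 30.5 with DMSO, with overlapping groups.

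HIST1H2BD, an H2B gene with both a stem-loop and AATAAA in its transcripts, had 127, 31.5, 73.5 and 58.3 normalised counts in iDOT1L, 70.1, 36.10, 29.002 and 52.31 in iEZH2 and 99.2, 53.5, 29.71 and 49.55 in Combo libraries, against 106, 51.4, 149 and 83.6 in DMSO libraries. The groups overlapped, and the log2 fold changes of -0.49, -1.02 and -0.77 with iDOT1L, iEZH2 and Combo were not called. HIST2H2BE, an H2B gene that also holds both, averaged 52.9 with iDOT1L, 33.6 with iEZH2, 40.4 with Combo and 39.0 with DMSO, again without a call. HIST1H2BK averaged 58.35, 47.89 and 55.98 with iDOT1L, iEZH2 and Combo and 71.9 with DMSO, and its log2 fold change with iEZH2 was -0.56 (limma adjusted p = 0.230). Its single annotated transcript ends with the coding sequence and holds neither signal, and 86.3% of its words are shared, mostly with H2BFS.

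Of the H4 genes, HIST1H4C had 45.3, 53.1, 63.2 and 82.9 normalised counts in iDOT1L, 65.4, 85.9, 53.2 and 94.0 in iEZH2 and 108, 67.3, 73.4 and 74.4 in Combo libraries, against 49.7, 62.5, 62.5 and 47.2 in DMSO libraries. Combo libraries were all above DMSO libraries, and the log2 fold change of 0.52 ± 0.23 was not called (SE, limma adjusted p = 0.132). HIST4H4, which stands outside the clusters, had 22.20, 10.13, 10.02 and 3.72 in iDOT1L, 20.03, 4.20, 11.05 and 9.52 in iEZH2 and 13.0, 13.3, 8.97 and 18.7 in Combo libraries, against 12.7, 27.3, 26.7 and 23.4 in DMSO libraries. DMSO 1 was the only DMSO library of HIST4H4 inside the range of the treated libraries of each group, and no comparison was called. HIST1H4H, an H4 gene of the HIST1 cluster, averaged 30.96, 40.57 and 44.7 with iDOT1L, iEZH2 and Combo and 36.4 with DMSO. HIST1H3B, the highest H3 gene per length, averaged 10.4, 13.4 and 14.9 with iDOT1L, iEZH2 and Combo and 12.9 with DMSO, and neither of them was called.

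No member was called with Combo against iDOT1L, where 2.58% of all genes were called, 4 members (7.14%, against 16.6% of all genes) had an unadjusted p under 0.05 and the lowest adjusted p was 0.0763, for HIST2H2AA4. Likewise none was called with Combo against iEZH2 in limma, where 3.81% of all genes were called, 2 members (3.57%, against 15.4% of all genes) had an unadjusted p under 0.05 and the lowest adjusted p was 0.0772, for HIST3H2A. The interaction, Combo minus iDOT1L minus iEZH2 plus DMSO, had no call among members or among all genes (0%) in limma, with 3 members (5.36%) and 848 genes (3.80%) at an unadjusted p under 0.05. Between Combo and iDOT1L 37 members had a positive and 19 a negative log2 fold change, and between Combo and iEZH2 33 and 23.

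Copies with the same sequence cannot be read apart. HIST2H3A and HIST2H3C had the same value in all 16 libraries. HIST2H4A and HIST2H4B together had 120 ± 39.8 normalised counts with iDOT1L, 106 ± 32.96 with iEZH2, 112 ± 32.6 with Combo and 146 ± 38.0 with DMSO (SD, n = 4 each). In all, 21 members shared over 20% of their words with other genes, 14 over 50% and 3 all of them.

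Replicate number moved with the level of many members. Replicate 1 was above replicate 2 in all 4 groups in 16 of the 38 members with a mean of at least 10 (42.1%), and the reverse held in 0. Over the 7211 genes of all kinds with means of 10 to 400, replicate 1 was above replicate 2 in all 4 groups in 19.6% and below it in 7.43%. What the numbers stand for is not in the labels, and this count was made after the values were seen.

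**Figure D4:**
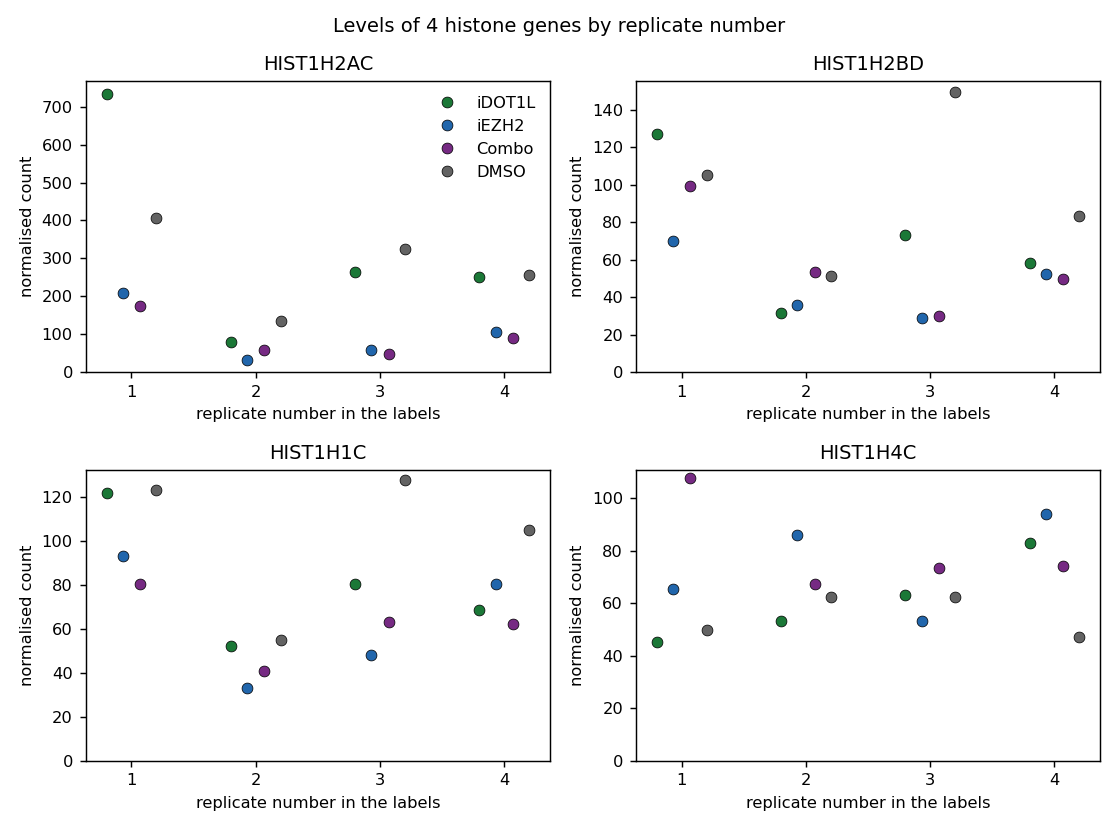
Normalised counts (y axis) of HIST1H2AC, HIST1H2BD, HIST1H1C and HIST1H4C by the replicate number in the labels (x axis), 1 point per library and coloured by group. HIST1H2AC was higher in replicate 1 than in replicate 2 in each group, for example 733 against 80.5 with iDOT1L and 406 against 134 with DMSO, while HIST1H4C had no such order.

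The 21 members with AATAAA in a transcript had a median of their means of 38.8 normalised counts, against 10.6 for the 35 without. Per kb the order was the other way round, 18.9 with and 21.8 without, since the median longest transcript was 1656 bases with and 411 bases without. Their median log2 fold changes were -0.05 with iDOT1L, -0.36 with iEZH2 and -0.30 with Combo. In the 35 others they were -0.16 with iDOT1L, 0.20 with iEZH2 and 0.17 with Combo. The split by stem-loop ran the same way with iEZH2, with medians of -0.32 in 27 members and 0.20 in 29. Both splits hold largely the same genes, since 17 members had both signals and 25 had neither. These medians are descriptions without a test, and the levels, transcript lengths and annotation of both sets differ.

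SLBP, which binds the stem-loop, averaged 2348 with iDOT1L, 2460 with iEZH2, 2399 with Combo and 2342 with DMSO (normalised counts), with no call. Of 29 genes for 3′ end formation and mRNA stability, none was called with iDOT1L or iEZH2, and 2 rose and 3 fell with Combo, where 16% of all genes were called. In the paired fit 1 rose and 1 fell with iDOT1L (12.2% of all genes called) and 1 rose with iEZH2 (9.76%). The genes called with Combo included CSTF2T, a cleavage factor paralogue (log2 fold change 0.44, limma adjusted p = 0.000434), and MIF4GD, a partner of SLBP in translation (0.56, adjusted p = 0.0195). ZNF473, a zinc finger protein of the histone pre-mRNA cleavage machinery (-0.48, limma adjusted p = 0.00708), and NPAT (-0.25, adjusted p = 0.0286) fell. NPAT averaged 774 ± 25.5 with iDOT1L, 799 ± 35.5 with iEZH2, 740 ± 34.6 with Combo and 878 ± 19.0 with DMSO (SD, n = 4 each).

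Among 26 histone chaperones and importers 1 rose and 1 fell with iDOT1L (6.25% of all genes called) and 0 were called with iEZH2 (3.35%) in limma. With Combo 2 rose and 1 fell, where 16% of all genes were called. In the paired fit the counts were 1 and 3 with iDOT1L and 5 and 0 with iEZH2, beside the same 12.2% and 9.76% of all genes. ASF1A, a chaperone that hands H3 and H4 to assembly factors, averaged 1439 ± 64.3 with iDOT1L, 3229 ± 1024 with iEZH2, 1390 ± 110 with Combo and 3366 ± 163 with DMSO. It fell by 1.23 on the log2 scale with iDOT1L (limma adjusted p = 0.000304) and by 1.28 with Combo (adjusted p = 7.17e-05). CABIN1, a subunit of the HIRA chaperone complex, rose with iDOT1L (log2 fold change 0.45, limma adjusted p = 0.0120) and Combo (0.35, adjusted p = 0.0275), and the RB-binding chaperone RBBP7 rose with Combo (0.27, adjusted p = 0.0340).

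Of 38 genes of DNA replication and S phase none was called with iDOT1L or iEZH2, where 6.25% and 3.35% of all genes were called. With Combo, where 16% of all genes were called, ORC6 rose (log2 fold change 0.43, limma adjusted p = 0.0134) and TK1 fell (-0.32, adjusted p = 0.0240). In the paired fit 12 rose with iEZH2 and 0 fell, where 9.76% of all genes were called, while 1 rose and 2 fell with iDOT1L, where 12.2% were. Of 20 genes of mitosis and G2 none was called with iDOT1L or iEZH2. With Combo 3 rose, where 16% of all genes were called and 7.22% were called higher. They were CENPF (0.67, limma adjusted p = 0.0278), CDC20 (0.38, adjusted p = 0.0324) and MKI67 (0.28, adjusted p = 0.0430). In the paired fit 2 of the 20 genes rose with iDOT1L and 5 with iEZH2, beside the same 12.2% and 9.76% of all genes. With iDOT1L against iEZH2 3 of the S-phase and 3 of the mitosis genes were lower (6.94% of all genes called), and 18 and 5 in the paired fit (14.3%). The part of the cell cycle in the levels of the histone genes was not tested.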

How the data were processed

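RNA from Molm14 cells, 4 libraries in each of 4 groups, was sequenced as paired reads. Per the submitters' processing notes the tools were kallisto and DESeq2 with the hg38 build; for their versions, the transcript annotation and any selection of polyadenylated RNA nothing is given in the sources used here. The extraction text in the labels speaks of a sort and another interval than the treatment description, which was followed. The deposited values are log2 values that the authors had variance-stabilised, and every library has 6.28 as its minimum, which stands for no reads. The inverse of the transformation, which depends on that minimum alone, gave normalised counts. In each library 62.8% to 65.7% of low values then lay within 0.1 read of a whole number, so totals of reads are estimates and no count test was run. There were 0 columns of other samples.

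Of 22445 IDs, 20784 matched GENCODE 29. Limma 3.58.1 in R 4.3.3 (trend, robust) was fitted to log2(normalised count + 1) with 4 group means over 16 libraries (12 residual degrees of freedom, median prior 6.80). Genes above 1 in at least 4 libraries were tested, with Benjamini-Hochberg adjustment within each comparison and calls at 0.05. The design foresaw a count test for counts and this fit for log values. Simulated data with known changes, planted only in genes with a mean of at least 50, were used to test the fit. That mean was reached by 10 of the 56 members, so the recovery of changes in the lower members was not tested. Tables were made with Python 3.11.15, numpy 2.4.6 and pandas 2.3.3, and plots with matplotlib 3.10.9.

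Labels do not say what the replicate numbers mean. Residuals of same-numbered libraries were correlated over 12270 genes with a mean of at least 50. The correlations were 0.109 to 0.50 for iDOT1L and DMSO and 0.198 to 0.581 for iEZH2 and DMSO. They were 0.113 to 0.639 for iDOT1L and iEZH2, so a paired fit is also given for these 3 comparisons. With genes of a mean of at least 10 (15457), 3 of 4 pairs exceeded 0.1 in each of the 3. The Combo libraries did not meet this in every pair. They were still part of the paired fit, which took replicate number as a block over all 16 libraries.

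Shared words are 31-base stretches of a gene's GENCODE transcripts that occur in transcripts of another gene. The members, gene lists, tests and the rule for named genes were chosen with earlier results of these data known. Named with values were up to 12 called members per comparison, the highest member per kb of each class, 12 members listed by name whichever way they went, SLBP, NPAT and up to 4 called genes of each further list with the lowest adjusted p in Combo against DMSO. Of the list of 10 RNAs without a poly(A) tail 0 had a row. Protein sequences and raw reads were not used here. A marker of other cell types and a gene near HIST3H2A are not reported here. Alternatives were other pseudocounts (0.5 and 5), filters, scalings, the deposited log2 values, the replicate number as a block, only the groups compared, leaving out 1 library and leaving out members with over 20% shared words.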

Additional observations from a re-analysis of the deposited data

Results flagged for a closer look

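In the DMSO group of HIST3H2A, replicate 3 had 23.6 normalised counts and lay far from the other 3 libraries of its group (4.38, 5.51 and 6.99). In the DMSO group of HIST3H3, replicate 4 had 2.01 normalised counts, about 2 reads, and the other 3 libraries had 0. Of 80 groups of 4 libraries, for 14 named members and the sums by class, 2 were marked in this way, and chance marks about 1 in 20 groups.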

How the results depend on the processing

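Replicate number as a block is the same fit as the paired fit above. With it, members called changed to 2 for iDOT1L against DMSO (12.2% of all genes), 4 for iEZH2 against DMSO (9.76%) and 5 for Combo against DMSO (24.6%). The block gave 2 for Combo against iDOT1L (10% of all genes), 2 for Combo against iEZH2 (9.57%) and 4 for iDOT1L against iEZH2 (14.3%). The interaction still had 0 (0% of all genes). Same-numbered Combo libraries did not pair in every case, so their block counts carry no more than that. Combo against iEZH2 gave 1 call with the deposited log2 values, 1 with a pseudocount of 5 and 1 with only the groups compared. Members with at most 20% shared words left 1 call for Combo against DMSO, because HIST2H3D and HIST2H2AA4 were then outside the set. Leaving out 1 library at a time gave 1 to 4 calls for Combo against DMSO, 1 to 2 for iDOT1L against DMSO, 0 to 1 for iEZH2 against DMSO, 0 to 2 for iDOT1L against iEZH2 and 0 for the rest. For settings other than the block the share of all genes called is not given here. Those counts of members are therefore not set against it. The 4 came without DMSO 2, where HIST1H2AD was also called lower. HIST1H2BN was called with iDOT1L without iDOT1L 3. With iEZH2 1 left out, HIST2H2AA4 was called lower against DMSO (log2 fold change -0.86), and HIST2H2AA4 and HIST1H2BC higher in iDOT1L than in iEZH2. Signs turned only for log2 fold changes that were never called, namely HIST1H1E with iDOT1L (0.00596 with the same upper quartile; -0.26 to 0.253 with 1 library left out), HIST1H2AC with iDOT1L (0.0196 with the deposited log2 values, 0.00731 with the same upper quartile; -0.568 to 0.488), HIST1H4C with iDOT1L (-0.0426 to 0.243), HIST1H4H with iDOT1L (-0.473 to 0.0703) and iEZH2 (-0.239 to 0.553), HIST2H2AA4 with iDOT1L (-0.181 to 0.119), HIST1H3B with iEZH2 (-0.693 to 0.238) and Combo (-0.0746 to 0.457), and HIST2H2BE with Combo (-0.091 to 0.138). Of the recomputed log2 fold changes of named members 623 kept direction and side of the threshold, 27 turned, 7 gained a call and 9 lost one. The causes were not tested. At 1 read per normalised count, changes in the 18 members below 10 rest on a few reads.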

Other observations

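Replacement histone genes were read in all groups. Of 12 none was called with iDOT1L or iEZH2 in limma, while 3 rose and 0 fell with Combo against DMSO, where 16% of all genes were called. In the paired fit 2 rose with iDOT1L (12.2% of all genes called) and 1 fell with iEZH2 (9.76%). H1FX, a linker variant, averaged 2317 ± 340 normalised counts with iDOT1L, 2039 ± 565 with iEZH2, 2865 ± 608 with Combo and 1679 ± 173 with DMSO (SD, n = 4 each), a log2 fold change of 0.75 with Combo (limma adjusted p = 0.00672). H2AFX, the variant phosphorylated at DNA breaks, rose with Combo by 0.42 (limma adjusted p = 0.0118) and H2AFV, a close relative of H2AFZ, by 0.28 (adjusted p = 0.0464). The median log2 fold change of the 12 genes with Combo was 0.25, beside 0.03 over all genes.

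Of 20 protein-coding genes that lie between HIST1 members on chromosome 6 and carry no HIST symbol, 17 had a row. The 17 include AL031777.3, whose transcripts hold 100% of the words of HIST1H3D and 98.1% of those of HIST1H2AD. Its reads therefore cannot be told apart from theirs with certainty. None of the 17 was called with iDOT1L or iEZH2 against DMSO in either fit. In the unpaired fit 1 of the 17, the transporter gene SLC17A4, fell with Combo, where 16% of all genes were called. It averaged 2.82 ± 1.13 normalised counts with Combo and 13.72 ± 9.003 with DMSO (log2 fold change -1.83, limma adjusted p = 0.00542).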
